A study of Mus musculus with 8 samples.

Results

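Chromatin accessibility was described around 8 genes of insulin-like growth factor (IGF) and insulin signalling: Igf1, Igf1r, Insr, Irs1, Irs2, Igfbp4, Igfbp5 and Pappa. They were named by symbol and are 8 of 21631 protein-coding genes in the RefSeq table of mouse assembly GRCm38.p6. For each gene, every deposited ATAC-seq peak that overlapped the gene body or the 50 kb on either side was taken, and its presence, width and rank by fold enrichment were followed through 8 libraries. ATAC-seq tags DNA that the transposase Tn5 can reach, so a peak marks open chromatin. The cells were granulosa cells, which line the ovarian follicle around the oocyte, collected by puncture from ovaries of mice aged 21 days.

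The hormone eCG (equine chorionic gonadotropin, or PMSG), which drives follicle growth, was given to all mice at 5 IU, and cells of 2 to 3 mice were pooled for each replicate. In the first experiment (LH), wild-type CBA x C57BL/6 F1 mice gave 2 libraries titled PMSG, for which mice were killed after 46 h of eCG, and 2 titled hCG, for which mice then received 5 IU of human chorionic gonadotropin (hCG), a stand-in for the surge of luteinising hormone, and were killed 6 h later. In the second experiment (PR), mice of the strain C.129S7(B6)-Pgrtm1Bwo/OmcJ, in which the progesterone receptor gene Pgr is targeted, gave 2 wild-type (WT) and 2 PR knockout (KO) libraries, all placed after hCG by the design text. The labels disagree on time: libraries titled hCG carry a 0 h tag and a peri-ovulatory source name, libraries titled PMSG carry a 6 h tag and a pre-ovulatory source name, and all PR libraries carry a 6 h tag with a pre-ovulatory source name. Directions between hCG and PMSG below follow the titles.

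IGF1 and insulin bind related receptor tyrosine kinases, IGF1R and INSR, which phosphorylate the adaptors IRS1 and IRS2 and so switch on phosphoinositide 3-kinase and AKT. IGF-binding proteins such as IGFBP4 and IGFBP5 hold IGF away from its receptor, and the secreted metalloproteinase PAPP-A, product of Pappa, cuts both of these and frees the ligand. In the ovary, granulosa cells both make and answer to IGF1, which acts together with follicle-stimulating hormone, and PAPP-A is a product of granulosa cells of growing follicles.

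The deposited lists held 55654 to 84313 intervals per library and covered 29.8 to 43.9 Mb, with median widths of 394 to 552 bp. Lists of the WT libraries (80137 and 84313 intervals) were longer than those of the KO libraries (58851 and 55654), and the hCG lists (65567 and 62327) were longer than the PMSG lists (57992 and 58780). Since the lists carry no read numbers, sequencing depth is unknown, and a peak missing from a short list may lie under its threshold. Every comparison was therefore also made with the same number of intervals taken from each library, strongest fold first (equal lists below): 57992 in the LH experiment and 55654 in the PR experiment. The strains and the prefixes of the peak names differ between the experiments, so values are compared within each one. All 8 granulosa cell markers had a peak within 1 kb of a gene start or end in every library. Of the 6 leukocyte markers 0 to 1 did, and Ptprc, Adgre1, Csf1r, Cd3e and Lyz2 had none in any list. The remaining one, Cd68, had a peak in both hCG libraries and in none of the other 6, and its part in differences between hCG and PMSG was not tested. Of the 6 theca and stroma markers 3 to 6 did, of the 5 endothelial markers 2, of the 6 oocyte markers 1, and of the 4 surface epithelium markers 1 to 2. In such bulk libraries, a site open in fewer cells and a site less open in each cell cannot be told apart.

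The start sites were examined first, and 4 of the promoters are shown: Igf1 and Igf1r because they have the lowest and highest GC content among the members listed, and Igfbp5 and Igfbp4 because they are the binding protein genes contrasted below. The sequences are the 250 bases before the start, from a RefSeq promoter table (GRCm38.p6) in which 6 of the 8 genes were matched, all but Insr and Pappa. Letters are in lower case, and capitals mark the only match found to a searched motif. Igf1 lies at chr10:87860861-87861110 on the plus strand, Igfbp5 at chr1:72874866-72875115 on the minus strand, Igf1r at chr7:67952007-67952256 on the plus strand, and Igfbp4 at chr11:99040994-99041243 on the plus strand, each printed 5′ to 3′.
Igf1: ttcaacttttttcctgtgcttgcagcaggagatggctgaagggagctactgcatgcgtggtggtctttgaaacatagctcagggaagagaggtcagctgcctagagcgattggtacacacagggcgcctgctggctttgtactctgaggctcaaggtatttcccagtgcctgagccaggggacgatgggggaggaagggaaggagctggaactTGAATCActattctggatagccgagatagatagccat
Igfbp5: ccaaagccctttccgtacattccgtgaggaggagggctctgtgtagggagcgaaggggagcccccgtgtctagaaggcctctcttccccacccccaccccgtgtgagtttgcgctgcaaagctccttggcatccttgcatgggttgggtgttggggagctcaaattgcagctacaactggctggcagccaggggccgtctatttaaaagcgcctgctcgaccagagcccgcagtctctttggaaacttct
Igf1r: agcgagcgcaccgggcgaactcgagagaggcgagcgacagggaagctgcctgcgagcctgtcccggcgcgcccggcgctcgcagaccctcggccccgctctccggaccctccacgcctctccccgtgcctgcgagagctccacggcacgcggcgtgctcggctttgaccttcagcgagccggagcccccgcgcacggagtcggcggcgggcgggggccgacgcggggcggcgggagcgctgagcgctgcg
Igfbp4: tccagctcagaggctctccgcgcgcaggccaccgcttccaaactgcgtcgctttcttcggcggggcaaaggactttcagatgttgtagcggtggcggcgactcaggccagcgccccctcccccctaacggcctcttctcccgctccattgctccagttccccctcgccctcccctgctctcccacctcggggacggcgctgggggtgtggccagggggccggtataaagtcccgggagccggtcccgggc

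The promoters of Igf1 and Igfbp5 had a GC content of 52.8% and 58.8%, with 5 and 10 CpG dinucleotides. Over 21045 promoters of the table the median was 55.6% with 10 CpG dinucleotides. The other 4 promoters were richer: 77.6% with 42 CpG dinucleotides in Igf1r, 69.2% with 22 in Igfbp4, 72.4% with 28 in Irs1 and 72.8% with 34 in Irs2. The capitals in Igf1 are the letters TGAATCA, which begin 37 bases before the start and match the AP-1 motif, searched as TGANTCA on both strands. That motif was in 6.17% of all promoters. None of the 6 promoters held the letters searched for FOXO (TGTTTAC, in 2.64% of promoters), RUNX (TGTGGTT, in 3.84%), NR5A (CAAGGTCA, in 1.15%) or CRE (TGACGTCA, in 1.94%). None held the motif of GATA factors, searched as AGATAAG and found in 2.43% of promoters. The same was true of those for a steroid receptor (ACANNNTGT, in 5.24%) and C/EBP (TTGCNNAA, in 9.18%). Such matches describe letters and are not evidence of binding.

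Every one of the 8 genes had a peak within 1 kb of the start used in all 8 libraries. For Igf1 that start, chr10:87861111, lies inside the gene body, which begins at chr10:87858265, and distances at Igf1 are counted from it. Within 1 kb of the end where the Igf1 body begins, only WT replicate 1 and KO replicate 1 had a peak (chr10:87859072-87859339). For Insr and Pappa, whose start is not in the table used, the peak was at the higher-coordinate and the lower-coordinate gene end, respectively, and the opposite end had none in any library. Across the 17274 genes with a single known start, 61.6% to 64.1% had such a peak. Peaks were ranked by the authors' fold within each list, as a percentile where 100 is the strongest peak of the list. Start-site peaks ranked high in general, with library medians of 73.6 to 82.0. Those of 7 of the 8 genes lay below all of these medians in every library.

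The ligand gene Igf1 had a weak start-site peak. Its percentiles were 19.999 and 17.1 in hCG, 8.07 and 9.57 in PMSG, 27.5 and 35.8 in WT and 14.0 and 29.5 in KO. The PMSG libraries were lowest and the hCG libraries higher, but on equal lists the hCG values were 9.55 and 10.9 against 8.07 and 8.34 in PMSG. The WT and KO values overlapped. The peak was 999 to 1566 bp wide and reached over the whole printed Igf1 promoter, except in KO replicate 2, where it ended before the start and before the capitals.

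The receptor genes differed at their starts. Insr, the insulin receptor gene, had the strongest of the 8, with percentiles of 79.5 and 70.5 in hCG, 88.9 and 91.9 in PMSG, 79.4 and 76.6 in WT, and 70.2 and 85.3 in KO. For Igf1r, the IGF1 receptor gene, they were 29.9 and 25.3 in hCG, 40.8 and 41.6 in PMSG, 39.4 and 34.1 in WT, and 18.7 and 27.8 in KO. At both receptor genes the PMSG values lay above the hCG values without overlap, on equal lists too. The medians over all genes moved the same way, at 76.2 and 73.6 in hCG and 81.8 and 81.4 in PMSG. At Igf1r the order of WT and KO turned with list length: WT lay above KO in the full lists, while on equal lists WT was at 12.8 and 0.149 and KO at 14.0 and 27.8. No single peak was tested.

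The adaptor genes Irs1 and Irs2 were intermediate. Irs1 percentiles ranged from 40.5 to 71.0 and Irs2 percentiles from 37.9 to 56.4 over the 8 libraries. Groups of the LH experiment overlapped at Irs1 (52.5 and 40.5 in hCG, 46.3 and 53.1 in PMSG). At Irs2 the hCG values of 39.6 and 37.9 lay below the PMSG values of 45.0 and 52.0.

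The binding protein genes differed from each other. Igfbp4 had start-site percentiles of 28.0 to 52.4 over the 8 libraries, and an interval reached over its start in each of them. Igfbp5 had very low ones: 9.59 and 5.04 in hCG, 2.15 and 1.85 in PMSG, 5.18 and 9.75 in WT, and 2.52 and 5.60 in KO. Its single interval was 390 to 509 bp wide, lay inside the gene and covered the start in none of the libraries, so the Igfbp5 promoter printed above was outside every peak. The protease gene Pappa was also low, at 18.3 and 14.5 in hCG, 1.55 and 14.8 in PMSG, 24.0 and 27.3 in WT, and 14.6 and 24.2 in KO. In PMSG replicate 1 the interval within 1 kb was 362 bp wide, where the other 7 libraries had 1453 to 2184 bp. A separate interval of 751 bp, farther into the gene in the same region, ranked 21.5 in that library.

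**Figure D1:**
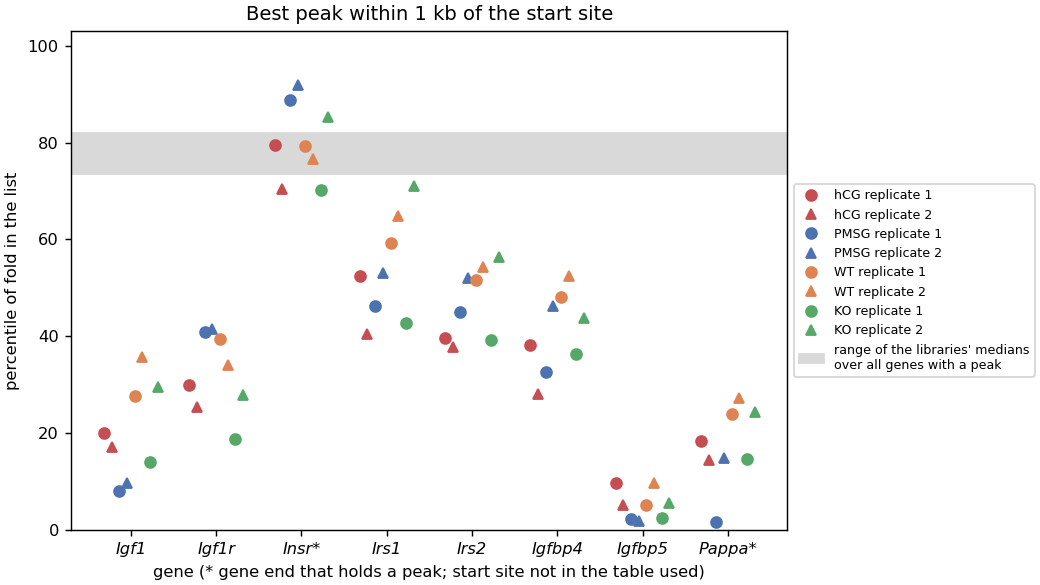
Percentile of the authors' fold, within each library's list, of the strongest peak within 1 kb of the start site of each gene (y axis, 100 is the strongest peak), with 1 point per library and the range of the libraries' medians over all genes with such a peak in grey. Insr lies within or above the grey range of 73.6 to 82.0 in most libraries, and Igfbp5 stays below 10 in all 8.

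Away from the start sites, the merged peaks of all 8 libraries formed 150 regions in the 8 windows. All 8 libraries held 54 of them (36%), against 37.9% of the 98245 regions of the genome. The number held by all 8 was 5 of 15 regions for Igf1, 16 of 38 for Igf1r, 5 of 19 for Insr, 6 of 23 for Irs1, 4 of 9 for Irs2, 4 of 9 for Igfbp4, 5 of 11 for Igfbp5 and 9 of 26 for Pappa. The 8 genes are long, with a median of 68.6 kb against 17.3 kb for all protein-coding genes. Their windows held a median of 13.5 regions per gene in the LH experiment, against 7 for all genes, and the part of length in this was not tested.

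The strongest region shared by all 8 libraries was near Irs1, 25.2 kb upstream of its start (chr1:82316199-82317081), inside the body of its neighbour Rhbdd1. Its percentiles were between 97.3 and 99.1 in every library. In the Igfbp4 window the strongest was 17.0 kb upstream of the start (chr11:99023563-99024933), inside the neighbouring gene Top2a, at 90.0 to 98.4. The strongest shared regions of Igf1 (chr10:87879679-87880663, 19.1 kb into the gene) and Insr (chr8:3220774-3221849) lay in the gene bodies. The Igf1 region ranked lower in PMSG (73.7 and 64.6) than in hCG (94.7 and 92.4), and at 89.2 to 95.1 in the PR libraries. The Insr region ranked 75.9 to 91.0. In the Igfbp5 window the strongest lay 3.14 kb beyond the gene's lower end (chr1:72854647-72855196) at 78.0 to 88.5, and in the Irs2 window 62.7 kb downstream of the start (chr8:10945806-10946673) at 70.1 to 83.7. At Igf1r the strongest (chr7:68006100-68006953, 54.3 kb into the gene) ranked 70.5 and 78.5 in hCG, 44.7 and 51.7 in PMSG, and 61.5 to 75.5 in the PR libraries.

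Widths at the 54 shared regions followed the lists. The median width was 747 and 669.5 bp in the hCG libraries and 568 and 575.5 bp in the PMSG libraries. Over all 37189 shared regions of the genome it was 724 and 711 bp against 589 and 582 bp. In the PR experiment the members' median was 764.5 and 788.5 bp in WT and 817.5 and 660 bp in KO, against 758 and 736 bp and 758 and 635 bp over the genome.

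**Figure D2:**
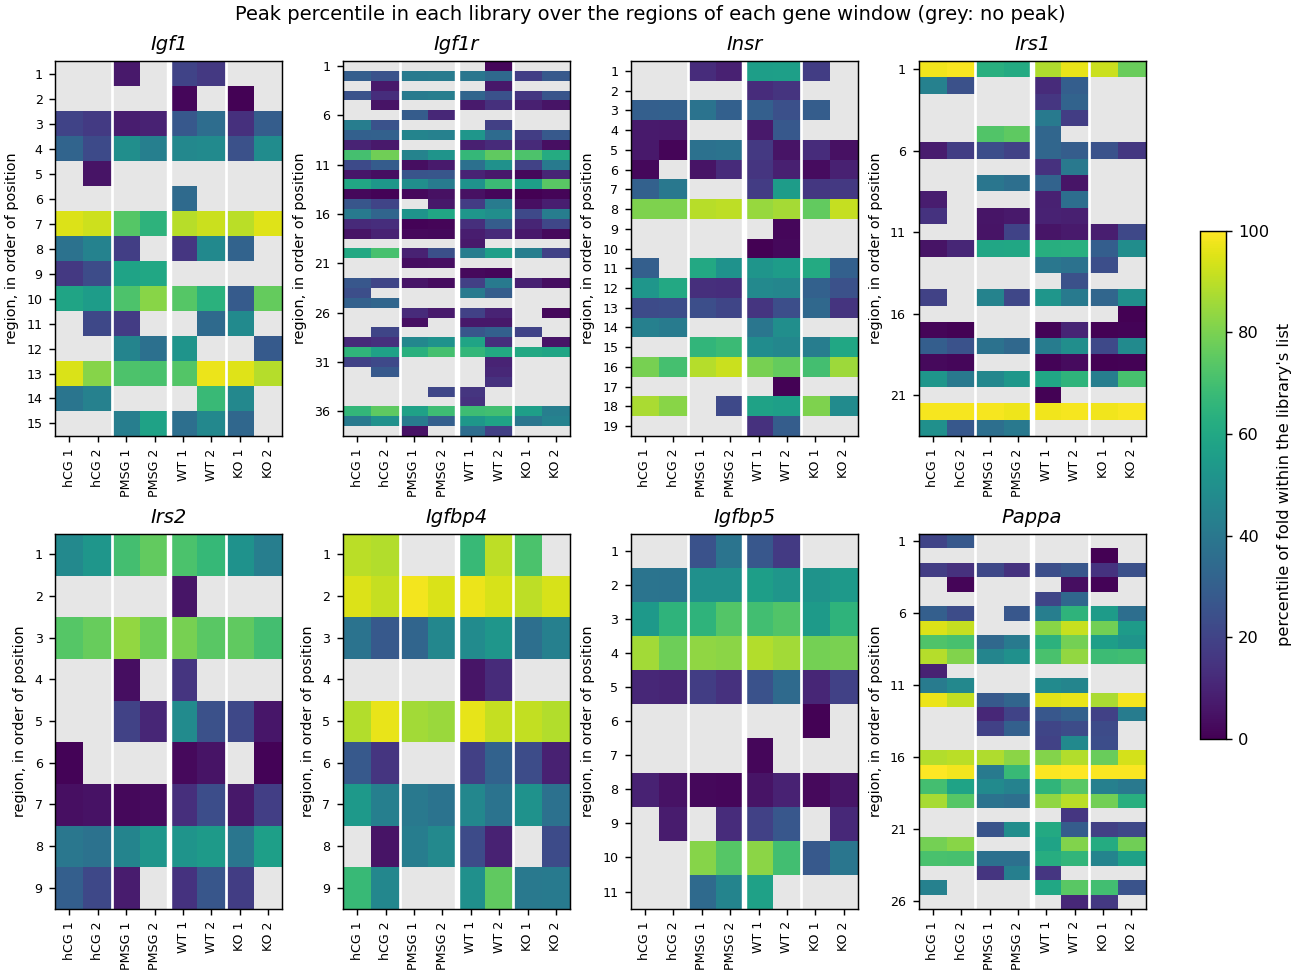
Percentile of the authors' fold within each library's list (colour, 100 is the strongest) for every region of the 8 gene windows (rows, in order of position, numbered from 1) in the 8 libraries (columns), with grey where a library has no peak. Of the 150 regions 54 have colour in all 8 columns, and several rows of Igfbp5, Igfbp4 and Pappa are grey in only the hCG or only the PMSG columns of the LH experiment.

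To ask how accessibility of the pathway differed with hCG, regions held by both libraries of one group and by neither of the other were counted in the LH experiment. Of the 127 regions in the windows, 18 were hCG-only (14.2%), where 17.7% of the 81943 regions of the genome were, and 19 were PMSG-only (15.0%), where 10.4% were. With the 20000 strongest peaks the balance turned, to 11 hCG-only and 5 PMSG-only of 32 regions (34.4% and 15.6%, beside 17.1% and 16.0% over the genome). It also turned, to 23 and 20, when peaks had to cover 50% of a region, and to 12 and 10 with the gene bodies alone. The genome's shares under those 2 rules are not set beside these counts, so no difference from the genome is read from them. With the same number of peaks in each library, 115 regions remained to be compared, of which 14 were hCG-only (12.2%) and 27 PMSG-only (23.5%), beside 15.3% and 13.3% over the genome. Of the 18 hCG-only regions 14 kept that call, and all 19 PMSG-only regions kept theirs. The 8 PMSG-only regions added there had peaks in both hCG libraries (6 regions) or in 1 of them (2 regions) in the full lists, at ranks too low to stay in the shortened ones. Among the regions added there was the start-site region of Igfbp5. In the full lists none of the group-only regions lay at a start site: 12 of the 18 hCG-only and 10 of the 19 PMSG-only regions lay in the gene body and the others in the flanks. Most were weak, and 4 of the 18 and 4 of the 19 had a mean percentile over 50 in their own group, where 34.6% and 27.5% of such regions did over the genome.

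Igfbp4 and Igfbp5, genes of binding proteins cut by the same protease, had several group-only regions that in the full lists all lay on 1 side. The Igfbp4 window had 3 hCG-only and 0 PMSG-only regions among 9 (3 and 1 on equal lists). The strongest lay 46.8 kb upstream of the start, in the body of Top2a (chr11:98994247-98994571). It ranked 89.8 and 88.3 in hCG and was absent from both PMSG lists, and it was present at 67.6 and 90.0 in WT and at 71.6 in KO replicate 1 but absent from KO replicate 2. Another lay 51.5 kb downstream of the start, beyond Tns4 (chr11:99092498-99093057), at 67.5 and 46.4 in hCG. The third, in the body of Tns4 (chr11:99076809-99077180), was weak at 28.0 and 15.4. All 3 lay in or next to the neighbouring genes Top2a and Tns4, and which gene they act on was not measured.

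The Igfbp5 window had 0 hCG-only and 3 PMSG-only regions among 9 (0 and 4 on equal lists). The fourth was the start-site region, which all 4 libraries held in the full lists. There it ranked higher in hCG (9.59 and 5.04) than in PMSG (2.15 and 1.85), so that call followed from shortening the hCG lists. The strongest of the 3 was 21.9 kb upstream of the start (chr1:72896512-72897075). It ranked 82.0 and 73.5 in PMSG with widths of 564 and 357 bp, and neither hCG list held it. In the PR experiment it was present in all 4 libraries, at 82.6 and 69.9 in WT and at 28.0 and 39.2 in KO, so that WT and KO did not overlap. On equal lists the WT values were 75.0 and 54.4 and the KO values 23.9 and 39.2. The other PMSG-only regions lay 40.1 kb upstream (chr1:72914864-72915118; 34.7 and 45.2 in PMSG, 57.2 in WT replicate 1 and in no other library) and in the non-coding gene Gm30847 (chr1:72813627-72814109; 25.3 and 38.5 in PMSG, 27.1 and 17.0 in WT, absent from KO). Among the 3, only the first ranked in the upper part of the PMSG lists.

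At the ligand gene Igf1, 1 of 13 regions was hCG-only and 2 were PMSG-only, and these counts did not change on equal lists. All 3 lay beyond the far end of the gene. The hCG-only region (chr10:87960133-87960467) ranked 38.9 and 43.9 in hCG. The PMSG-only regions ranked 45.3 and 37.1 (chr10:87940059-87940352) and 42.6 and 57.8 (chr10:87971599-87971823) in PMSG. None of the 3 ranked above 57.8 in its own group.

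The receptor genes had group-only regions on both sides. Igf1r, the longest member at 281 kb, had 4 hCG-only and 3 PMSG-only regions among 36, all in the gene body. On equal lists these were 3 and 6. The 3 hCG-only regions that kept their call lay 21.8, 127 and 196 kb from the start. They ranked between 19.6 and 42.4 in the hCG lists. The PMSG-only regions lay 19.01, 109 and 128 kb from the start and ranked lower, between 3.84 and 29.1 in the PMSG lists. Insr had 3 hCG-only and 2 PMSG-only regions among 14, and 2 and 4 with the same number of peaks, so its balance turned. The PMSG-only region at chr8:3256229-3256826 was its strongest, at 65.9 and 68.1 in PMSG, absent from hCG, and at 42.5 to 59.6 in the 4 PR libraries. The other PMSG-only region (chr8:3179964-3180151) ranked 12.8 and 9.08. The hCG-only regions that kept their call ranked 43.5 and 41.8 (chr8:3253254-3253476) and 30.9 and 40.2 (chr8:3213029-3213422). Both receptor genes thus lost their surplus of hCG-only regions when the lists were made equally long.

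The adaptor genes Irs1 and Irs2 had 3 and 0 hCG-only regions and 4 and 1 PMSG-only regions. With the same number of peaks Irs1 had 1 hCG-only and 4 PMSG-only regions among 14, and Irs2 had 0 and 2 among 7. The strongest at Irs1 was PMSG-only, lay 77.7 kb downstream of the start (chr1:82213364-82214102) and ranked 72.7 and 75.2 in PMSG. It was present at 33.1 in WT replicate 1 and in none of the other 5 libraries. The other Irs1 PMSG-only regions ranked between 5.17 and 39.2 in PMSG, and the hCG-only region that kept its call (chr1:82195676-82195872) ranked 44.0 and 24.6 in hCG. The 1 PMSG-only region of Irs2 (chr8:10978321-10978744), beyond the far end of the gene, ranked 19.7 and 10.9.

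Pappa had 4 hCG-only and 4 PMSG-only regions among 21, the same counts with equal lists (among 19). Of the hCG-only ones, 2 ranked above all of the PMSG-only ones. A region 35.6 kb into the gene (chr4:65159461-65160008) ranked 94.9 and 91.2 in hCG, with widths of 504 and 479 bp, and was absent from both PMSG lists. In the PR experiment it ranked 82.1 and 91.6 in WT and 78.8 and 54.7 in KO. A second, 223 kb into the gene (chr4:65347085-65347554), ranked 79.1 and 82.1 in hCG and 57.9 to 81.0 in the PR libraries. The third (chr4:65194387-65194688) ranked 41.5 and 46.7, and the fourth, 45.6 kb below the lower gene end (chr4:65078445-65078775), ranked 20.5 and 27.7 and was in no PR list. The 4 PMSG-only regions ranked between 11.3 and 49.1 in the PMSG lists. The strongest of them (chr4:65318002-65318446) ranked 25.8 and 49.1. When only the 20000 strongest peaks of each list were used, Pappa had a surplus of 7 hCG-only over PMSG-only regions.

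**Figure D3:**
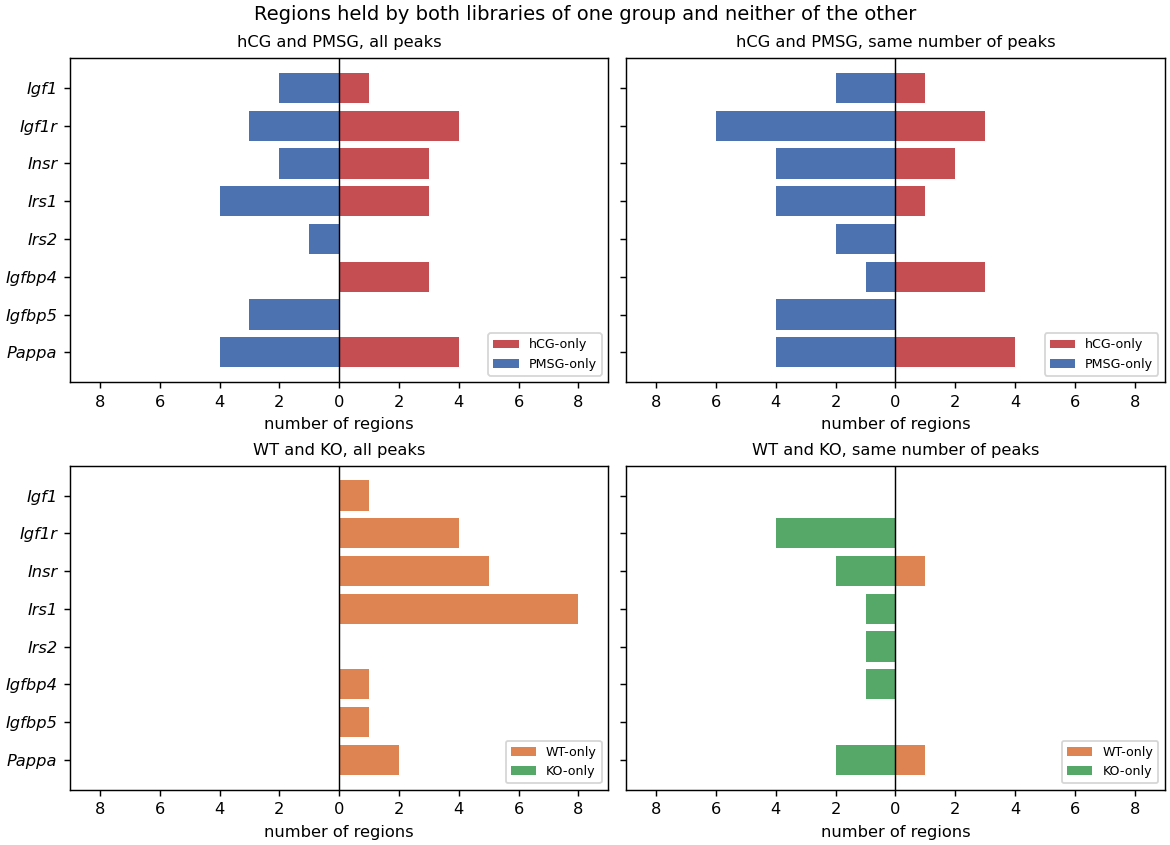
Number of regions (x axis) held by both libraries of one group and neither of the other in each gene window, for hCG and PMSG (top) and WT and KO (bottom), with all peaks (left) and with lists of equal length (right). Igfbp4 extends to the hCG side by 3 and Igfbp5 to the PMSG side by 3 with all peaks, and the WT-only bars of the lower left panel, 22 regions in all, shrink to 2 in the lower right.

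Regions held by all 4 libraries of an experiment were compared by rank, on lists of equal length. A region was said to rank higher in a group if both of its libraries lay at least 20 points above both of the other. This measure was chosen after values had been seen. Of the 50 shared regions of the 8 windows in the LH experiment, 9 ranked higher in hCG and 5 in PMSG. Over the genome these shares were 8.47% and 10.9% of 38268 regions.

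Of the 9 regions that ranked higher in hCG, 6 were in the Pappa window, which had 9 shared regions and none that ranked higher in PMSG. The median difference at Pappa was 31.5 points towards hCG, where it was −3.53 points over all shared regions of the genome. The largest was 79.7 kb into the gene (chr4:65203604-65204162), with 96.5 and 90.2 in hCG against 28.1 and 31.7 in PMSG. The next, 130 kb into the gene (chr4:65254001-65254595), ranked 99.96 and 98.1 in hCG against 41.1 and 66.9 in PMSG. There the intervals were 550 and 571 bp wide in hCG and 167 and 173 bp in PMSG. In the PR experiment, where all libraries were placed after hCG, this region ranked 99.3 and 99.8 in WT and 99.4 and 99.5 in KO with all peaks. The other 4 ranked 67.5 to 87.2 in hCG and 33.8 to 49.4 in PMSG. In the PR experiment, with all peaks, these 4 were lower than the region at 130 kb, at 62.1 to 89.6 in WT and 45.1 to 78.6 in KO. The gene end with the start peak did not share the pattern: on equal lists, with the best interval of the region, it ranked 7.66 and 8.06 in hCG and 21.5 and 13.6 in PMSG. A region 119 kb into the gene (chr4:65242406-65243551) was as high in both groups, at 87.1 and 88.7 in hCG and 88.1 and 82.4 in PMSG.

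**Figure D4:**
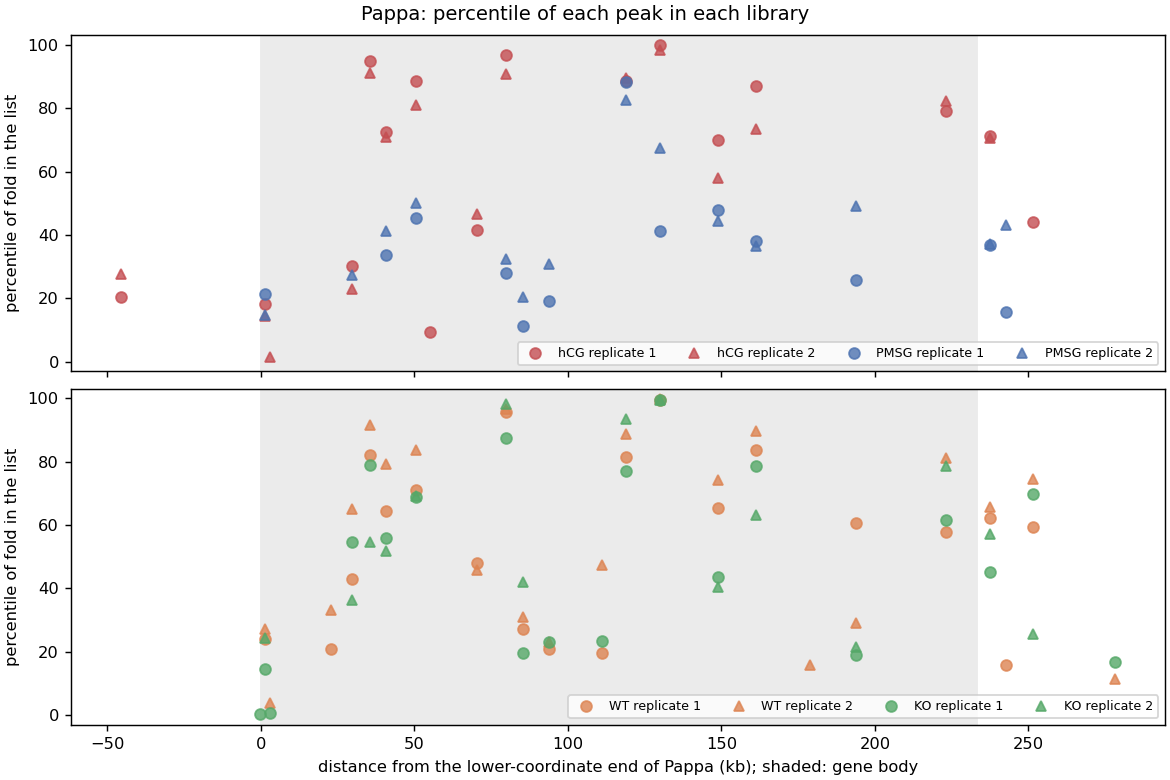
Percentile of the authors' fold (y axis, all peaks of each list) of each Pappa region against its distance in kb from the lower-coordinate gene end (x axis, gene body shaded), with hCG and PMSG libraries above and WT and KO libraries below. Regions near 80 and 130 kb sit above 90 in the hCG libraries and below 70 in the PMSG libraries, and above 85 in all 4 PR libraries, while the start peak at the lower end stays under 30.

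The other members had few regions of this kind. In the Irs1 window a region 102 kb downstream of the start (chr1:82189461-82190066) ranked 97.5 and 99.1 in hCG against 63.0 and 60.4 in PMSG. At Insr a region of the gene body (chr8:3247132-3247513) ranked 46.5 and 57.5 in hCG against 13.6 and 11.9 in PMSG. At Igf1 a region 29.0 kb into the gene (chr10:87889982-87890244) went the other way, with 5.59 and 17.4 in hCG against 58.0 and 59.1 in PMSG, and it was absent from all 4 PR lists. At Irs2 a region 73.6 kb downstream of the start (chr8:10934910-10935772) ranked 40.0 and 48.8 in hCG against 70.2 and 75.6 in PMSG.

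Igf1r had 1 region that ranked higher in hCG and 3 that ranked higher in PMSG, among 14. The first lay 96.4 kb into the gene (chr7:68048544-68048861), at 55.3 and 68.6 in hCG against 9.65 and 23.4 in PMSG. One of the 3 was the start-site region itself, at 20.7 and 19.7 in hCG against 40.8 and 40.8 in PMSG. The largest of the 3 was 163 kb into the gene (chr7:68114834-68115599), at 0.371 and 7.44 in hCG against 46.1 and 50.2 in PMSG. The shared regions of Igfbp4 (5) and Igfbp5 (3) held no such difference.

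**Figure D5:**
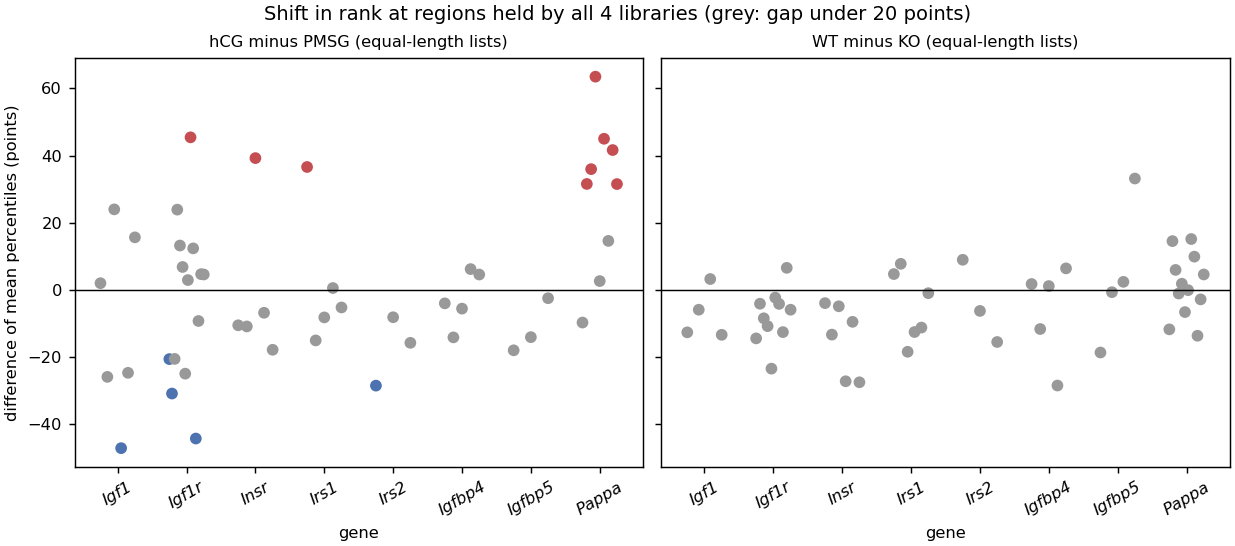
Difference between the mean percentiles of 2 groups (y axis, percentile points) at each region held by all 4 libraries of an experiment, for hCG minus PMSG (left) and WT minus KO (right), with points coloured where both libraries of one group lie at least 20 points above both of the other and grey otherwise. Of the 9 coloured points above 0 on the left, 6 belong to Pappa, and no point is coloured on the right.

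To ask which sites depend on PGR, WT and KO libraries were compared in the same way. Of 144 regions in the windows, 22 were WT-only (15.3%), where 12.1% of the 91502 regions of the genome were, and 0 were KO-only, where 0.0842% were. By gene the WT-only regions numbered 8 for Irs1, 5 for Insr, 4 for Igf1r, 2 for Pappa, 1 each for Igf1, Igfbp4 and Igfbp5, and 0 for Irs2. The WT lists were the longer ones, and this difference in list length moved with the count: on equal lists only 2 of the 22 stayed WT-only, and 11 of 108 regions were KO-only (10.2%). The genome gave 4.25% WT-only and 4.16% KO-only on those lists. All 11 were held by all 4 libraries in the full lists, and 4 of them lay at Igf1r, 2 each at Insr and Pappa, and 1 each at Irs1, Irs2 and Igfbp4. Of the 22 WT-only regions 0 had a mean percentile over 50 in the WT lists, where 11.9% of WT-only regions did over the genome.

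The 2 regions that stayed WT-only lay in the bodies of Insr and Pappa. The Insr region (chr8:3253234-3253461) ranked 39.4 and 49.3 in WT with widths of 187 and 228 bp and was absent from both KO lists. The Pappa region (chr4:65194505-65194641) ranked 47.9 and 45.7 in WT with widths of 119 and 137 bp and was likewise absent. Both overlap regions named above that were hCG-only in the LH experiment, so that each was held by the 2 hCG and the 2 WT libraries and by none of the PMSG and KO libraries. Over the genome, 30.2% of WT-only regions on equal lists were held by both hCG and neither PMSG library, and 7.52% by both PMSG and neither hCG library, where 0 of the 2 were. In the full lists 4 of the 22 WT-only regions had the first pattern (21.8% over the genome), the others being at Insr (chr8:3204945-3205623) and Irs1 (chr1:82195676-82195851). The second pattern was seen at 3 (10.4% over the genome). No test was made of these regions.

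Among the 50 regions shared by WT and KO on lists of equal length, 0 ranked higher in WT and 0 in KO by the 20-point rule, where 0.594% and 0.623% of 40604 regions did over the genome. Leaving out 1 library at a time, which asks for fewer libraries, gave 0 to 3 higher in WT and 3 to 6 in KO. The largest difference of means was that of the Igfbp5 region 22.0 kb upstream of the start, given above, at 33.2 points towards WT. At Pappa the median difference was 0.889 points, where it was −1.88 points over all shared regions of the genome.

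The group-only regions of the LH experiment were then looked up in the PR lists, which come from other mice. Of the 18 hCG-only regions, both WT libraries held 13 and both KO libraries held 8, where 78.6% and 41.8% of the 14473 hCG-only regions of the genome were so held. Of the 19 PMSG-only regions, both WT libraries held 13 and both KO libraries held 6, where 43.1% and 15.4% of the 8511 PMSG-only regions of the genome were. All PR libraries were placed after hCG, so a PMSG-only region held there had a peak after hCG in these other mice. The share of PMSG-only regions so held was above the genome's for both genotypes, and the share of hCG-only regions was close to it. No test was made of these shares. The WT lists are also the longest, and the part of list length in these counts was not tested.

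As a measure with 1 value per library, the share of all peak bases that lay in the 8 windows was compared. It was 0.140% ± 0.000453 in hCG and 0.155% ± 0.00127 in PMSG (SD, n = 2 each), which differ by −0.0146 percentage points. Both PMSG libraries (0.156% and 0.154%) lay above both hCG libraries (0.140% and 0.140%). An exact permutation test over libraries, two-sided, gave p = 0.333, the smallest this test can give for 2 libraries against 2, so it cannot reach 0.05 here. With the 20000 strongest peaks the difference turned to 0.0237 percentage points. In the PR experiment the WT share was 0.155% ± 0.00326 and the KO share 0.153% ± 0.00583 (SD, n = 2 for both). They differ by 0.00258 percentage points, and the exact permutation p, two-sided, was 0.667. The groups overlapped, with 0.158% and 0.153% in WT and 0.157% and 0.149% in KO. On equal lists the difference turned to −0.0234. The labels call the libraries biological replicates, each a pool of mice. The p-values rank the observed difference among the possible assignments of these pools to groups, and the SD describes the spread between pools.

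The same counts were made for 42 other genes of the pathway. Their windows held 445 regions in the LH experiment, of which 76 were hCG-only (17.1%) and 37 PMSG-only (8.31%), near the genome's shares given above. With the same number of peaks 62 of 418 were hCG-only and 54 PMSG-only. The 9 genes downstream of AKT had 137 regions, of which 36 were hCG-only (26.3%) and 15 PMSG-only (10.9%), beside 17.7% and 10.4% over the genome. On equal lists 27 (21.8%) and 19 (15.3%) of 124 were, beside 15.3% and 13.3%. In the full lists every other subset of the 42 genes had an hCG-only share of at most 16.7%, below the genome's. Mtor, the kinase of the growth-controlling mTOR complexes, had 7 hCG-only and 1 PMSG-only regions among 13, with the same counts on equal lists. Gsk3b, a kinase that AKT inhibits, had 7 and 1 among 15 (7 and 2 on equal lists). Foxo1, a transcription factor that AKT keeps out of the nucleus, had 8 and 4 among 22 (3 and 2 on equal lists), and Foxo3 had 4 and 3 (2 and 4 on equal lists).

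The 9 genes of the phosphoinositide 3-kinase and AKT step had 115 regions, 16 hCG-only (13.9%) and 8 PMSG-only (6.96%). Both shares were below the genome's 17.7% and 10.4%. Among them Pik3ca, a catalytic subunit of phosphoinositide 3-kinase, had 4 hCG-only and 0 PMSG-only regions among 15. Pdpk1, the kinase that activates AKT, had 3 and 0 among 11. On equal lists these were 4 and 1, and 3 and 0. Further down, Tsc2 and Slc2a1, the gene of a glucose transporter, each had 3 hCG-only and 1 PMSG-only regions (3 and 2, and 2 and 2 on equal lists). The 3 feedback genes had 51 regions, of which 8 were hCG-only (15.7%) and 2 PMSG-only (3.92%), both shares below the genome's. Of these genes, Socs3 had 4 and 0 among 16 and Ptpn1 3 and 0 among 19 (2 and 1, and 2 and 2 on equal lists). On the PMSG side were Grb14, an adaptor that inhibits the insulin receptor, with 1 hCG-only and 5 PMSG-only regions (0 and 4 on equal lists), and Rheb with 2 and 3 (2 and 4 on equal lists). On equal lists Htra1 had 1 and 4, Pik3r1 2 and 4 and Igfbp2 2 and 3. Igfbp2 lies in the Igfbp5 window, so some regions were counted for both genes. In the PR experiment 57 of 491 regions were WT-only (11.6%) and 0 KO-only. On equal lists 16 (4.05%) and 27 (6.84%) of 395 were, beside the genome's 4.25% and 4.16%. In the full lists, those with 3 or more WT-only regions were Socs2 and Rheb with 5 each, Gsk3b with 4, and Pappa2, Htra1, Pik3ca, Pik3cb, Foxo1 and Foxo3 with 3 each. Pappa2, the gene of a second pappalysin protease, was the one whose 3 WT-only regions, among 7, were also 3 on equal lists, where each of the other 8 had 0 or 1. On equal lists Pik3r1 had 4 KO-only regions and Akt1 and Irs3 had 3 each. The 3 other ligand genes, Igf2, Ins1 and Ins2, had 3 regions together in the LH experiment and none that was group-only.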

How the data were processed

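ATAC-seq libraries of mouse granulosa cells were grouped by their titles into 4 groups of 2. The authors deposited 1 peak list per library in the 10-column narrowPeak layout, so peaks were called per library and replicates were compared as separate calls. Bowtie2, MACS2 and the mm10 build are named in the submitters' processing notes, without versions. A shift of reads for the Tn5 cut is not given in the sources used here. By the narrowPeak layout, the deposited column 7 is a fold enrichment over background, a linear ratio. The deposited columns 8 and 9 are, by the same layout, −log10 p and −log10 q, and no deposited −log10 q was under 10. Column 5 of the deposited lists is a score and was not used. Peak names in the PR lists speak of filtering and of duplicate marking, unlike those in the LH lists.

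Each interval was used once, with the best fold of its summits, on chromosomes 1 to 19 and X. Within an experiment, intervals that shared at least 1 bp were merged into regions. A region counted as held by each library with an interval in it. Regions held by both libraries of one group and neither of the other were called group-only, over the whole genome, and those overlapping a gene body or its 50 kb flanks were counted for the members. Percentiles were computed within each list. Gene bodies and starts were taken from RefSeq GRCm38.p6, which is the assembly of mm10. In each list, 56.4% to 59.2% of starts fell within a peak, and 1.96% to 3.12% did after a shift of 100 kb. No exon annotation or genome sequence was used, so exons were not told from introns. All 8 members were described, with the regions at their starts, group-only regions that stayed so with the same number of peaks, the strongest of the others and the strongest region held by all 8 libraries; pathway genes were named with 3 or more group-only regions in 1 direction, except 1 that is not reported here. The members and the lists were chosen with earlier results of these data known, and the comparison of ranks after its values were seen.

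One value per library was compared by an exact two-sided permutation test, and no region was tested singly. The alternatives were the same number of peaks, the 20000 strongest peaks, a −log10 q of at least 20, an overlap of 50% of the region, regions merged over all libraries, smaller windows, a replicate block and each library left out. Scripts in Python 3.11.15 with pandas 2.3.3, numpy 2.4.6, scipy 1.17.1 and matplotlib 3.10.9 were tested on simulated data.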

Additional observations from a re-analysis of the deposited data

How the results depend on the processing

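Read depth is unknown. WT-only and KO-only counts turned when the lists were made equally long, while the 6 Pappa regions that ranked higher in hCG numbered between 4 (ranked by −log10 q) and 6 under the 10 alternatives run. With the same number of peaks, the surplus of hCG-only over PMSG-only regions in the 8 windows moved from −1 to −13 (Igf1r to −3, Insr to −2), WT-only regions from 22 to 2, KO-only regions from 0 to 11 and their difference from 22 to −9 (Igf1r to −4, and Igfbp4, Insr, Irs1 and Pappa to −1 each). The share of peak bases, WT minus KO, was then −0.0234 percentage points. Taking that number by −log10 q, an alternative chosen after seeing the data, gave −8 for the LH surplus, 1 WT-only and 5 KO-only regions with a difference of −4 (Igf1r −2, and Igfbp4, Irs1 and Pappa −1 each), and a share difference of −0.00442. The 20000 strongest peaks gave 11 hCG-only and 5 PMSG-only regions (difference 6), 0 WT-only regions (difference 0), and share differences of 0.0237 for hCG minus PMSG and −0.00793 for WT minus KO.

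The LH surplus was 0 at a −log10 q of at least 20, 3 when peaks had to cover 50% of a region, 0 with regions merged over all 8 libraries and −3 with 20 kb flanks. With the gene body alone there were 10 PMSG-only regions (surplus 2) and 13 WT-only regions (difference 13), as fewer regions are counted. The share difference of WT minus KO was −0.000485 with the gene body alone and −0.00102 with 20 kb flanks. For ranks, whose alternatives were all chosen after seeing the data, all peaks gave 2 regions higher in WT, a gap of 10 points gave 13 higher in PMSG, 1 in WT and 3 in KO, a gap of 30 points gave 2 in PMSG, and a −log10 q of at least 20 gave 0 in PMSG and 2 in WT. Other than where stated, the cause of these changes was not tested.

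Leaving out 1 library at a time, which asks for fewer libraries and so gives more calls, gave 21 to 26 hCG-only and 20 to 24 PMSG-only regions, a surplus of −2 to 3 (2 without hCG replicate 1, 3 without hCG replicate 2, 1 without PMSG replicate 1; Insr −1 without hCG replicate 1), 27 to 33 WT-only and 0 to 2 KO-only regions, and a difference of 25 to 33. Share differences ranged from −0.0155 to −0.0137 for hCG minus PMSG and from −0.00154 (without KO replicate 2) to 0.00671 for WT minus KO. Ranks gave 10 to 11 regions higher in hCG, 6 to 10 in PMSG (10 without hCG replicate 1), 0 to 3 in WT and 3 to 6 in KO. With the replicate number as a block, the share differences were −0.0146 and 0.00258 with an exact two-sided sign-flip permutation p of 0.5 each, the smallest that 2 pairs allow. The labels do not say that equal numbers share a batch.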
